A study of Homo sapiens with 15 samples.

Results

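The clade B serpins are a family of mostly intracellular protease inhibitors, and their transcripts were followed in MCF-10A cells in which p63 isoforms had been depleted or supplied in excess. MCF-10A is an established human cell line, mammary in origin, immortalized and not tumour-forming, and p63 is a transcription factor of the p53 family found in basal epithelial cells. The family members considered were SERPINB1, SERPINB2, SERPINB3, SERPINB4, SERPINB5, SERPINB6, SERPINB7, SERPINB8 and SERPINB13. The platform annotation used here lists a probe set with a single symbol for 7 of these 9 genes, out of 11963 genes in all, and SERPINB2 and SERPINB6 were not analysed here. Each gene is represented by its probe set with the highest mean over all arrays; that mean includes the treated arrays, so a probe set that rose gained level in the choice.

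All groups were MCF-10A cells sampled 48 hours after retroviral or adenoviral infection; which virus served which arm is not stated. The knockdown arm held cells with an shRNA against the DNA-binding domain of every p63 isoform (shDBD), cells with an shRNA against the isoforms with the transactivating domain (shTA) and cells with the shRNA vector, with 2 arrays each. The overexpression arm held cells given ΔNp63α, which lacks that domain, cells given TAp63γ, which carries it, and cells with the overexpression vector, with 3 arrays each. The labels call the replicates biological but do not say that they were separate infections, so the p-values measure the spread between these arrays, which may be partly technical. All groups come from a single cell line, and p63 transcript levels, which would test the labels, were not analysed here.

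Clade B serpins differ from most of the serpin superfamily in lacking a classical secretion signal, and many act inside the cell. An inhibitory serpin presents a flexible reactive loop as bait; the protease cuts it, and the serpin then changes shape and traps the enzyme in a covalent complex. Most clade B genes lie in a cluster on the long arm of chromosome 18 and the others on chromosome 6, and several are expressed in stratified squamous epithelium. Of the 7 genes measured, SERPINB5, SERPINB13, SERPINB4, SERPINB3, SERPINB7 and SERPINB8 lie in that order on chromosome 18, and SERPINB1 lies on chromosome 6.

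SERPINB3 and SERPINB4 arose by a recent duplication, and their upstream sequences are shown to let a reader see how alike the starts of these neighbouring genes are. The windows lie outside the transcripts, so they say nothing about how well the probe sets tell the genes apart. The 250 bases before each annotated start are given 5′ to 3′ on the gene's own strand, from RefSeq on GRCh38.p14, and capitals mark the bases at which the pair differ.
SERPINB3, chr18:63661894-63662143, minus strand: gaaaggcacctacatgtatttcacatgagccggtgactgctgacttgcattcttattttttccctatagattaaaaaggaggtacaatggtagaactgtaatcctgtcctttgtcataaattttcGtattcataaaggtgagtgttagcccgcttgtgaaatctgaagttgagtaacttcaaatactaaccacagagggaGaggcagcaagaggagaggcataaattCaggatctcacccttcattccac
SERPINB4, chr18:63644257-63644506, minus strand: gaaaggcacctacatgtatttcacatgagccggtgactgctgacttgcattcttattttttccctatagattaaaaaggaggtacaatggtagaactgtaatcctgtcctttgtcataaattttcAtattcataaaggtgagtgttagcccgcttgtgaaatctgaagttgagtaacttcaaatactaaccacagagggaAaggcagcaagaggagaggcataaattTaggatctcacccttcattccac
The windows differed at 3 of 250 bases and were 98.8% identical.

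The window of SERPINB13 is shown for contrast, since this neighbour fell with shDBD where SERPINB3 rose. Its capitals mark a match to the AP-1-like motif TGANTCA, in which N is any base and which was searched on both strands.
SERPINB13, chr18:63587093-63587342, plus strand: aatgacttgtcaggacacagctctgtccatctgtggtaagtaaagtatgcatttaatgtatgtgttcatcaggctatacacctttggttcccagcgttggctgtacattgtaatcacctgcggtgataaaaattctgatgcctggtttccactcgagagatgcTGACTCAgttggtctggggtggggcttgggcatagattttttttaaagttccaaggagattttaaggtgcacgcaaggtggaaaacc
Windows with this motif were also found for SERPINB5, SERPINB7 (2 of its 3 annotated starts) and SERPINB8, and none of the windows of SERPINB1, SERPINB3 and SERPINB4 held it. Of 35116 such windows over all genes, 6.57% held the motif. A strict p53-family half-site, searched by its consensus on both strands, was in 0 windows of the 7 genes and in 5.57% of all windows. A match is a run of letters and not evidence of binding, and the absence of one says nothing about the factor.

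Values are log2 expression values made by the authors with RMA, which equalizes the distributions of the arrays. The median of an array was 7.19 to 7.21 after knockdown and 6.95 to 6.98 after overexpression, so levels are compared within an arm only, and the level of a probe set is not compared with that of another. A value below the 20th percentile of its array was treated as possible background; this touched only SERPINB4 among the 7 genes. Changes are log2 fold changes ± SE from limma over all 11963 genes, and a gene was called at an adjusted p below 0.05. Of 6 basal epithelial genes measured (KRT5, KRT14, CDH1, CDH3, ITGB4 and LAMB3), none lay below the 20th percentile on every array of any group, and their mean level per array was 11.8 to 11.9 with shDBD and 12.3 to 12.4 with shTA, against 12.5 with the shRNA vector, and 12.1 to 12.4 with ΔNp63α and 12.5 to 12.7 with TAp63γ, against 11.7 to 12.0 with the overexpression vector. The difference between the 3′ and 5′ actin control probe sets, a measure of RNA integrity, averaged 0.0668 ± 0.0262 with shDBD and 0.102 ± 0.14 with shTA, against −0.0868 ± 0.00982 with the shRNA vector (SD, n = 2). It averaged 0.162 ± 0.0594 with ΔNp63α and 0.0772 ± 0.0663 with TAp63γ, against 0.17 ± 0.0578 with the overexpression vector (SD, n = 3). The part of RNA integrity in the results below was not tested.

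Both overexpressed isoforms raised most of the 7 serpins. These genes were chosen with earlier results of these data known, so the counts are no independent test of the family. SERPINB9 and SERPINB10, measured clade B genes outside the chosen set, were not called in any comparison. With ΔNp63α, 7 of 7 serpins rose, where 28.9% of all genes were called, 12.3% higher and 16.6% lower. The median change of the 7 genes was 0.87 against −0.00485 for all genes. With TAp63γ, 6 of 7 rose, where 43.4% of all genes were called, 20.5% higher and 22.8% lower, and the median was 1.86 against −0.02. Knockdown gave a mixed picture. With shDBD, 2 of 7 rose and 2 fell, where 21.3% of all genes were called, 11.1% higher and 10.2% lower. With shTA, 2 of 7 rose and 0 fell, where 2.29% of all genes were called, 1.44% higher and 0.853% lower. The shTA counts depend on the fit: 1064 genes in place of 274 passed with the arms fitted separately, and with 1 array left out 87 to 472 genes and 1 to 3 serpins did. Both treatments of an arm share their vector arrays, so their values are given side by side and not counted as agreement.

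**Figure D1:**
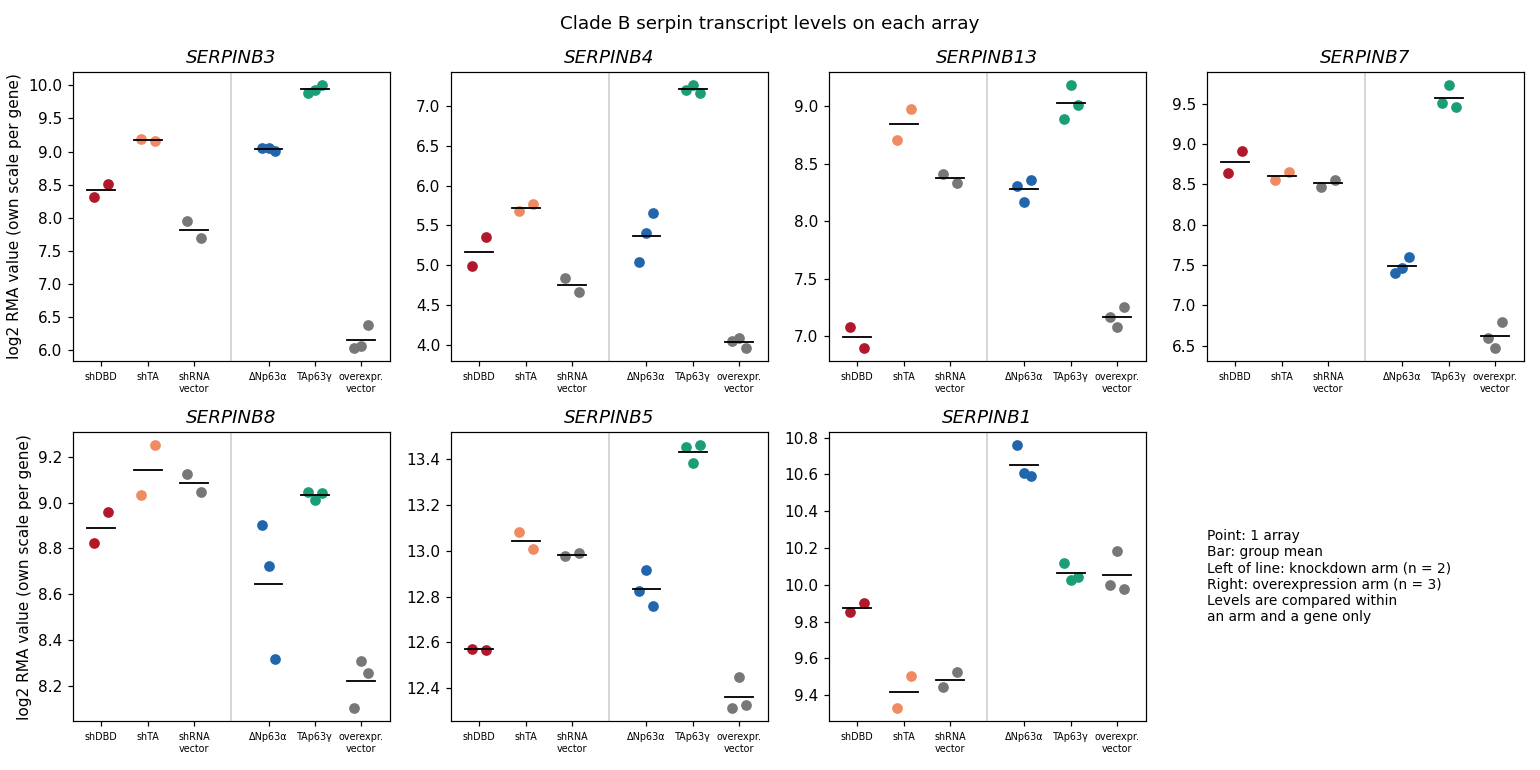
Log2 RMA value of each of the 7 clade B serpins followed here on each of the 15 arrays, with the treated groups left of their vector in each arm. Points are arrays and bars are group means, and each gene has its own axis. SERPINB3 and SERPINB4 sit above the vector arrays in all 4 treated groups, SERPINB13 sits below the vector with shDBD and above it in the other 3, and SERPINB1 stands apart from its vector with shDBD and ΔNp63α only.

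SERPINB3 and SERPINB4 encode the squamous cell carcinoma antigens. SERPINB3 inhibits papain-like cysteine proteases such as cathepsins L, K and S, and SERPINB4 inhibits serine proteases such as cathepsin G. On the log2 scale SERPINB3 (probe set 209719_x_at) measured 9.06, 9.06 and 9.01 with ΔNp63α and 9.88, 9.93 and 10.004 with TAp63γ, against 6.04, 6.07 and 6.39 with the overexpression vector. The groups did not overlap, and the 3 levels were stepped, with TAp63γ above ΔNp63α and ΔNp63α above the vector. The rise was 7.35-fold with ΔNp63α (2.88 ± 0.0989, adjusted p = 7.5e-12) and 13.7-fold with TAp63γ (3.78 ± 0.0989, adjusted p = 2.36e-13), the largest of the 7 genes in both comparisons.

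SERPINB3 was also higher with both hairpins, at 8.32 and 8.51 with shDBD and 9.20 and 9.17 with shTA, against 7.95 and 7.70 with the shRNA vector. Here too the groups did not overlap, with shTA highest and the vector lowest. The rise was 2.56-fold with shTA (1.36 ± 0.121, adjusted p = 1.57e-05) and 1.51-fold with shDBD (0.59 ± 0.121, adjusted p = 0.00208). The other SERPINB3 probe set (209720_s_at) rose in the same comparisons, by 0.43 ± 0.142 with shDBD, 1.35 ± 0.142 with shTA, 3.39 ± 0.116 with ΔNp63α and 4.45 ± 0.116 with TAp63γ. It lay below the 20th percentile on all 3 overexpression vector arrays, so the size of its rises in that arm is uncertain.

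SERPINB4 (probe set 211906_s_at) measured 5.04, 5.40 and 5.66 with ΔNp63α and 7.19, 7.26 and 7.16 with TAp63γ, against 4.05, 4.09 and 3.97 with the overexpression vector. All 3 vector arrays and 1 ΔNp63α array lay below the 20th percentile, so the size of the rise is uncertain. It was 8.96-fold with TAp63γ (3.16 ± 0.125, adjusted p = 1.68e-11) and 2.51-fold with ΔNp63α (1.33 ± 0.125, adjusted p = 9.09e-07). When every value under that percentile was raised to it, the changes were 2.11 (adjusted p = 1.82e-09) and 0.3 (adjusted p = 0.0305). In the knockdown arm SERPINB4 measured 4.99 and 5.35 with shDBD and 5.68 and 5.77 with shTA, against 4.84 and 4.67 with the shRNA vector. Only the shTA arrays were above the 20th percentile. SERPINB4 rose with shTA (0.97 ± 0.153, adjusted p = 0.0024), a call that was lost with floored values (0.33, adjusted p = 0.193) and without shRNA vector replicate 2 (0.88, adjusted p = 0.0519). Its difference with shDBD did not pass (0.42 ± 0.153, adjusted p = 0.0676). It passed with the arms fitted separately (adjusted p = 0.0164). It also passed without ΔNp63α replicate 1 (adjusted p = 0.0187) or ΔNp63α replicate 3 (adjusted p = 0.0216), arrays of the other arm that leave the difference itself unchanged. Without shDBD replicate 1 the difference was 0.60. With floored values it was 0.00286 (adjusted p = 0.998), all 4 arrays being below the 20th percentile.

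A probe set annotated to both genes (210413_x_at) rose in all 4 comparisons, by 0.46 ± 0.139 with shDBD, 0.75 ± 0.139 with shTA, 1.6 ± 0.114 with ΔNp63α and 2.39 ± 0.114 with TAp63γ. Near-identical transcripts can hybridize to the same probes, so the split of these rises between SERPINB3 and SERPINB4 is uncertain. The chosen probe sets of the pair differed in more than 1 comparison. With ΔNp63α the change from the vector was 2.88 for SERPINB3 and 1.33 for SERPINB4 (0.3 with floored values). With shDBD only SERPINB3 was called. ΔNp63α minus TAp63γ was −1.83 ± 0.125 for the SERPINB4 probe set and −0.90 ± 0.0989 for that of SERPINB3. These differences between probe sets were not themselves tested.

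SERPINB13, also called headpin or hurpin, is an inhibitor of cathepsins L and K that is expressed in stratified epithelia. It had the largest fall of the family, measuring 7.08 and 6.90 with shDBD and 8.71 and 8.98 with shTA, against 8.41 and 8.33 with the shRNA vector (probe set 217272_s_at). Both shDBD arrays lay far below the other 4, and both shTA arrays lay above the vector arrays. SERPINB13 fell 2.61-fold with shDBD (−1.38 ± 0.121, adjusted p = 7.6e-07). Its difference with shTA did not pass (0.47 ± 0.121, adjusted p = 0.0569), close to the threshold. The difference passed with the arms fitted separately (adjusted p = 0.0152), with the prior variance not following the mean level (0.0475) and with low-level genes left out (0.0482). With floored values it did not pass (adjusted p = 0.0695). As single arrays were left out it ranged from 0.34 to 0.61, and it passed only without ΔNp63α replicate 3, TAp63γ replicate 1 or TAp63γ replicate 2.

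Overexpression moved SERPINB13 upward, to 8.30, 8.17 and 8.36 with ΔNp63α and 8.88, 9.18 and 9.01 with TAp63γ, against 7.17, 7.08 and 7.25 with the vector. The 3 groups did not overlap. The rise was 2.16-fold with ΔNp63α (1.11 ± 0.0988, adjusted p = 5.23e-07) and 3.62-fold with TAp63γ (1.86 ± 0.0988, adjusted p = 5.87e-10). SERPINB13 was measured by 6 probe sets. With shDBD, 211362_s_at, above the 20th percentile on all 15 arrays like 217272_s_at, was also lower (−0.43 ± 0.107). Probe sets 211361_s_at (−0.96 ± 0.202, called) and 216258_s_at (−0.12 ± 0.165, adjusted p = 0.736) lay below the 20th percentile on both shDBD and both shRNA vector arrays, so neither measures the fall. With TAp63γ, 211361_s_at (2.3 ± 0.165), 211362_s_at (1.13 ± 0.0871) and 216258_s_at (2.05 ± 0.134, with 1 vector array below the 20th percentile) rose. The remaining probe sets, 215817_at and 216257_at, were not called against any vector and lay below the 20th percentile on 13 of 15 arrays each.

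**Figure D2:**
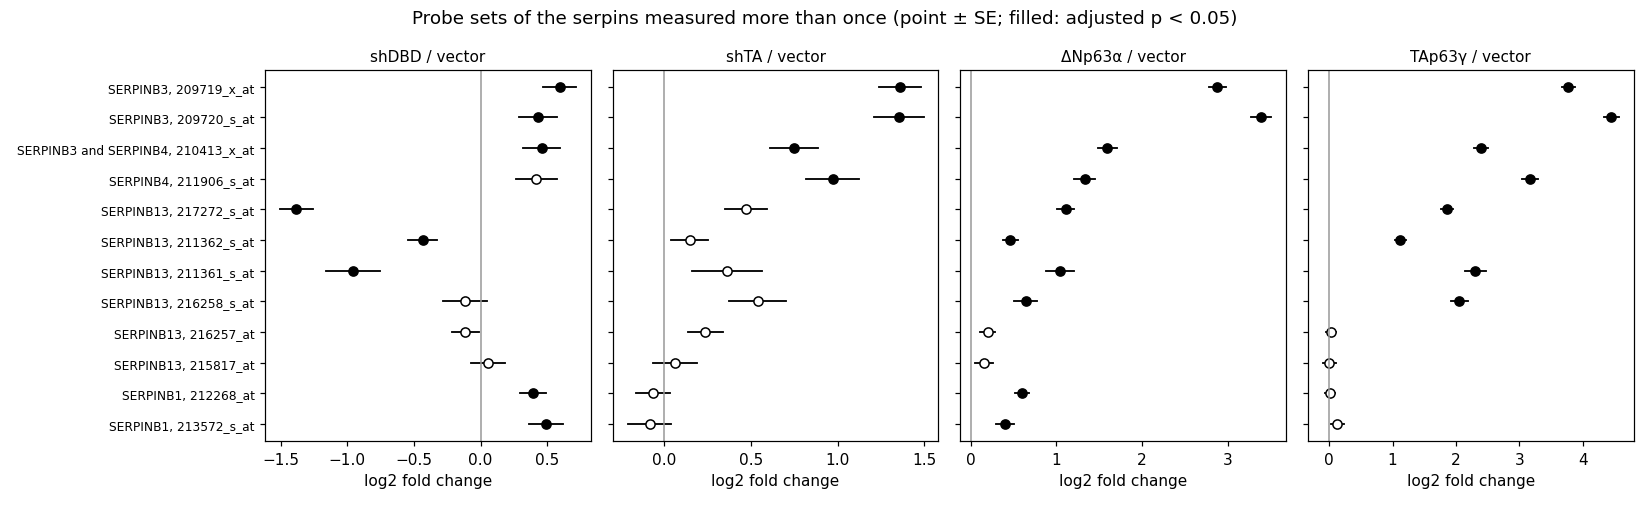
Log2 fold change ± SE for each probe set of SERPINB1, SERPINB3, SERPINB4 and SERPINB13, against the vector of the same arm. Filled points passed an adjusted p of 0.05 over all probe sets, and the axes differ between panels. The SERPINB3 and SERPINB4 probe sets lie right of 0 in every panel, and of the 6 SERPINB13 probe sets 3 were called lower with shDBD, 1 of them below the 20th percentile on all 4 arrays compared, and 4 were called higher with each isoform.

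SERPINB7, or megsin, is a serpin of the upper epidermis whose loss causes a palmoplantar skin disorder. It had the largest difference between the isoforms among the 7 genes, measuring 7.40, 7.46 and 7.60 with ΔNp63α and 9.51, 9.73 and 9.45 with TAp63γ, against 6.59, 6.47 and 6.79 with the vector (probe set 206421_s_at). The 3 groups were far apart. The rise was 7.73-fold with TAp63γ (2.95 ± 0.104, adjusted p = 4.57e-12) and 1.83-fold with ΔNp63α (0.87 ± 0.104, adjusted p = 1.13e-05). In the knockdown arm it measured 8.64 and 8.92 with shDBD and 8.56 and 8.65 with shTA, against 8.47 and 8.56 with the shRNA vector. Its change did not pass with shDBD (0.26 ± 0.128, 95% interval −0.01 to 0.54, adjusted p = 0.179) or with shTA (0.09 ± 0.128, 95% interval −0.19 to 0.36, adjusted p = 0.855).

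SERPINB8 is an inhibitor of the proprotein convertase furin. It measured 8.90, 8.72 and 8.32 with ΔNp63α and 9.05, 9.01 and 9.04 with TAp63γ, against 8.10, 8.31 and 8.26 with the vector (probe set 206034_at). The TAp63γ arrays agreed closely, whereas the ΔNp63α arrays were spread and the lowest of them was barely above the highest vector array. SERPINB8 rose 1.76-fold with TAp63γ (0.81 ± 0.12, adjusted p = 4.14e-05) and 1.34-fold with ΔNp63α (0.42 ± 0.12, adjusted p = 0.0142). The ΔNp63α call was lost without overexpression vector replicate 1 (0.36, adjusted p = 0.0596), ΔNp63α replicate 1 (0.3, adjusted p = 0.0746) or ΔNp63α replicate 2 (0.39, adjusted p = 0.0535). The hairpins left it at 8.82 and 8.96 with shDBD and 9.03 and 9.25 with shTA, against 9.13 and 9.04 with the shRNA vector, and neither change passed (−0.19 ± 0.147, 95% interval −0.51 to 0.12, with shDBD and 0.06 ± 0.147, 95% interval −0.26 to 0.37, with shTA).

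SERPINB5, or maspin, is a serpin without protease inhibitor activity that is known as a tumour suppressor of the mammary gland and as a p53 target. It measured 12.57 and 12.57 with shDBD and 13.08 and 13.01 with shTA, against 12.98 and 12.99 with the shRNA vector (probe set 204855_at). Both shDBD arrays lay below all the others of the arm. SERPINB5 fell 1.33-fold with shDBD (−0.41 ± 0.0682, adjusted p = 0.000357), and its change with shTA did not pass (0.06 ± 0.0682, 95% interval −0.08 to 0.21, adjusted p = 0.795). With overexpression it measured 12.83, 12.92 and 12.76 with ΔNp63α and 13.45, 13.38 and 13.46 with TAp63γ, against 12.31, 12.45 and 12.33 with the vector. The groups were again stepped without overlap, and the rise was 1.39-fold with ΔNp63α (0.47 ± 0.0557, adjusted p = 9.34e-06) and 2.1-fold with TAp63γ (1.07 ± 0.0557, adjusted p = 4.43e-10). SERPINB5 lay at percentile 98.6 of both shRNA vector arrays, where array signals can be compressed. Basal epithelial genes also fell with shDBD, 3 of 6: ITGB4 (−1.56 ± 0.162), LAMB3 (−1.24 ± 0.143) and KRT14 (−0.49 ± 0.115). Of 8 luminal genes 2 rose with shDBD, ERBB3 (1.06) and GATA3 (0.90), and 0 fell. Among these luminal genes PGR and KRT19 lay below the 20th percentile on every array of the knockdown arm. Among all genes 11.1% rose and 10.2% fell with shDBD. Of 8 fibroblast genes DCN rose (2.37) and FAP fell (−0.47), with COL3A1 and LUM below the 20th percentile on every shDBD and vector array. Of 6 endothelial genes PECAM1 (0.41) and KDR (0.29) rose, with CDH5 below it on every such array. Their part in the falls of SERPINB5 and SERPINB13 was not tested. Between the hairpins, 4 of 8 luminal, 2 of 8 myeloid, 1 of 8 fibroblast and 1 of 6 endothelial genes were higher with shDBD and 0 lower. Of the 6 basal genes 3 were lower and 0 higher. Among all genes 9.14% were higher and 9.23% lower.

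SERPINB1, the inhibitor of neutrophil elastase, cathepsin G and proteinase 3, is the only measured member from chromosome 6 in the set. Its order of levels was its own. It measured 10.76, 10.61 and 10.59 with ΔNp63α and 10.12, 10.03 and 10.04 with TAp63γ, against 9.998, 10.19 and 9.98 with the vector (probe set 212268_at). ΔNp63α stood above both other groups, which overlapped. SERPINB1 rose 1.52-fold with ΔNp63α (0.60 ± 0.0806, adjusted p = 3.67e-05), and its change with TAp63γ did not pass (0.01 ± 0.0806, 95% interval −0.16 to 0.18, adjusted p = 0.94). It measured 9.85 and 9.90 with shDBD and 9.33 and 9.50 with shTA, against 9.44 and 9.52 with the shRNA vector. SERPINB1 rose with shDBD (0.39 ± 0.0988, adjusted p = 0.00917). It did not pass when shDBD replicate 2 (0.37, adjusted p = 0.0661) or shRNA vector replicate 1 (0.35, adjusted p = 0.0865) was left out. With shTA it did not pass (−0.07 ± 0.0988, 95% interval −0.28 to 0.14, adjusted p = 0.857). A further probe set, 213572_s_at, rose with shDBD (0.49 ± 0.127) and with ΔNp63α (0.4 ± 0.103) and was not called with shTA or TAp63γ.

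SERPINB1 is abundant in neutrophils and monocytes, so myeloid markers are given beside it. Of 10 listed, 8 were measured. Their mean level per array was 6.28 to 6.36 with shDBD and 6.08 to 6.14 with shTA, against 6.04 to 6.15 with the shRNA vector, and 5.62 to 5.71 with ΔNp63α and 5.66 to 5.73 with TAp63γ, against 5.66 to 5.7 with the overexpression vector. LYZ lay below the 20th percentile on every array, as did ELANE on every knockdown array and CD163 on every overexpression array. With shDBD 2 of the 8 rose, CD14 (1.27) and CSF1R (0.42), where 11.1% of all genes rose. With ΔNp63α MPO rose (0.32) and CD14 fell (−0.48), and with TAp63γ, where SERPINB1 was not called, MPO rose by 0.84 and CD14 fell as well (−0.55). Their part in the SERPINB1 result was not tested.

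**Figure D3:**
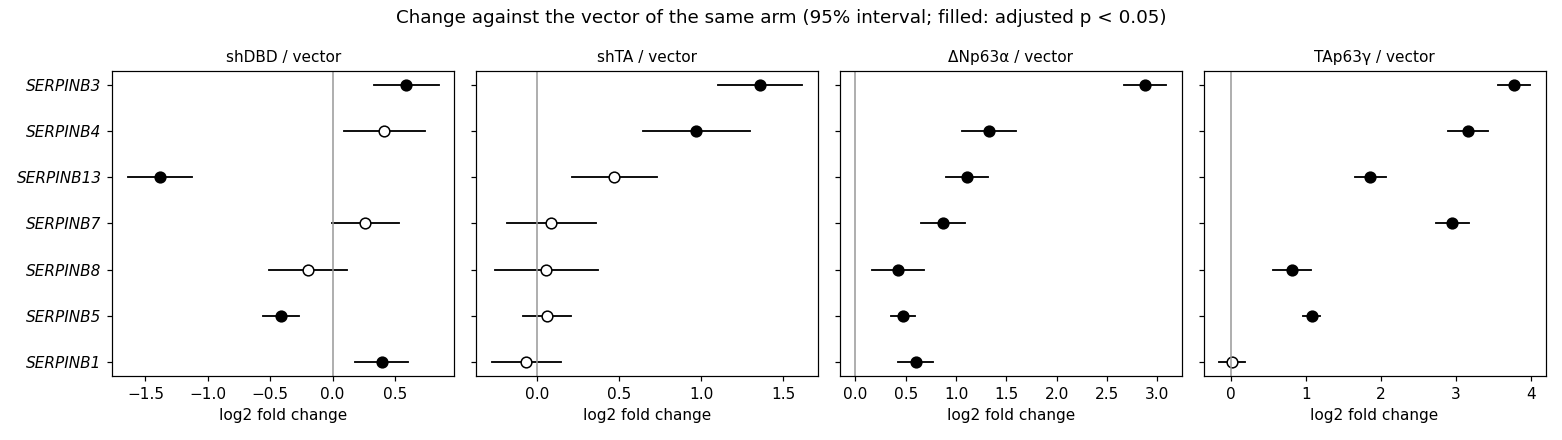
Log2 fold change with its 95% interval for each of the 7 clade B serpins followed here, against the vector of the same arm. Filled points passed an adjusted p of 0.05 over all genes, and the axes differ between panels. With ΔNp63α all 7 intervals lie above 0, with TAp63γ only that of SERPINB1 spans 0, and with shDBD SERPINB13 lies at −1.38 while SERPINB3 lies at 0.59.

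The direct comparison set the ΔNp63α arrays against the TAp63γ arrays. The isoforms differ in the α or γ form as well as in the transactivating domain, and their amounts were not analysed here. Which of these the differences follow was not tested. Of the 7 serpins, 6 were lower with ΔNp63α than with TAp63γ, and 1 was higher, where 39.8% of all genes were called, 20.6% lower and 19.2% higher. The 6 were the chromosome 18 genes. SERPINB7 differed most (−2.08 ± 0.104, 4.23-fold, adjusted p = 7.03e-10), followed by SERPINB4 (−1.83 ± 0.125, adjusted p = 2.09e-08, and −1.81 with floored values), SERPINB3 (−0.90 ± 0.0989, adjusted p = 3.57e-06) and SERPINB13 (−0.75 ± 0.0988, adjusted p = 2.13e-05). SERPINB5 (−0.60 ± 0.0557, adjusted p = 6.09e-07) and SERPINB8 (−0.39 ± 0.12, adjusted p = 0.0174) differed less, and the SERPINB8 call was lost without ΔNp63α replicate 3 (−0.22, adjusted p = 0.078). SERPINB1 was higher with ΔNp63α (0.59 ± 0.0806, adjusted p = 3.01e-05). Its further probe set had the same sign and did not pass (0.27 ± 0.103, adjusted p = 0.0512).

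Between the hairpins, 4 of 7 serpins were lower with shDBD than with shTA, and 1 was higher, where 18.4% of all genes were called, 9.23% lower and 9.14% higher. Without shTA replicate 1, 3 serpins passed in place of 5. SERPINB13 differed most (−1.85 ± 0.121, 3.62-fold, adjusted p = 5.29e-08). SERPINB3 (−0.77 ± 0.121, adjusted p = 0.000308) and SERPINB5 (−0.48 ± 0.0682, adjusted p = 0.000129) were lower as well, and SERPINB1 was higher (0.46 ± 0.0988, adjusted p = 0.00364), although without shTA replicate 1 it did not pass (0.37, adjusted p = 0.058). SERPINB4 was lower (−0.55 ± 0.153, adjusted p = 0.0184), a call that was lost with floored values (−0.32, adjusted p = 0.0729) and without shDBD replicate 1 (−0.37, adjusted p = 0.24), shTA replicate 1 (−0.60, adjusted p = 0.0661) or shTA replicate 2 (−0.51, adjusted p = 0.118). SERPINB7 (0.18 ± 0.128, 95% interval −0.10 to 0.45) and SERPINB8 (−0.25 ± 0.147, 95% interval −0.57 to 0.06) did not pass.

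**Figure D4:**
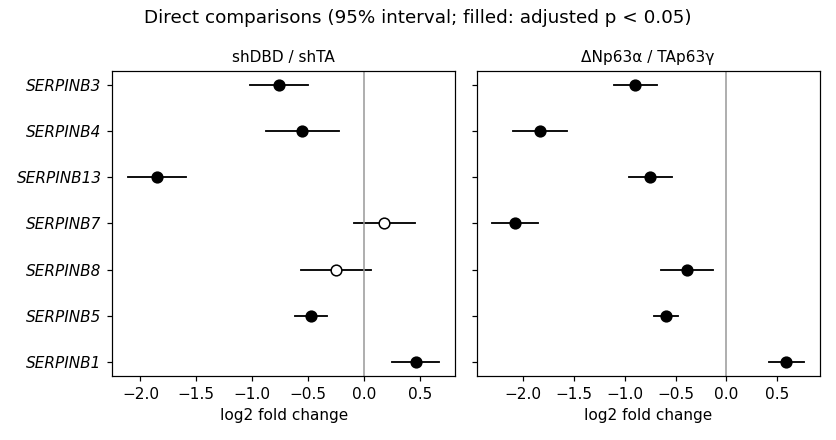
Log2 fold change with its 95% interval between the treatments of an arm, shDBD over shTA and ΔNp63α over TAp63γ; filled points passed an adjusted p of 0.05 over all genes. SERPINB13 lies farthest left between the hairpins (−1.85) and SERPINB7 between the isoforms (−2.08), and SERPINB1 is the only gene called right of 0 in either panel.

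The other measured clade B genes, SERPINB9 and SERPINB10, were not called in any comparison. SERPINB9, the granzyme B inhibitor on chromosome 6, lay below the 20th percentile on all 15 arrays with both of its probe sets. SERPINB10, a serpin of blood-forming cells that lies between SERPINB7 and SERPINB8, was called in 0 of 6 comparisons. The largest difference of SERPINB10 from a vector was 0.13, with ΔNp63α (adjusted p = 0.287). It lay at percentile 18.4 to 24.6 of the 15 arrays, near background, so a lack of change there says little. The nearest measured genes outside the chromosome 18 cluster, 3 on each side, were looked at after the serpin values had been seen. With ΔNp63α 0 of these 6 were called, where 28.9% of all genes were, and with TAp63γ 1 was, where 43.4% were. The called gene was KDSR, an enzyme of sphingolipid synthesis (0.38, adjusted p = 0.00112). KDSR was also lower with ΔNp63α than with TAp63γ (−0.24, adjusted p = 0.0292). BCL2, VPS4B, CDH7, CDH19 and CCDC102B were not called in any of the 6 comparisons.

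Serpins of other clades, most of them secreted, are given beside the family. Of 16 measured, 4 rose and 0 fell with ΔNp63α, and 6 rose and 1 fell with TAp63γ, with medians of 0.05 and 0.09. Over all genes 12.3% rose and 16.6% fell with ΔNp63α and 20.5% rose and 22.8% fell with TAp63γ. The number called in either direction is thus near the background, with a larger share of rises and a smaller share of falls. SERPINA1, the elastase inhibitor α1-antitrypsin, rose by 3.27 ± 0.144 with TAp63γ and 0.86 ± 0.144 with ΔNp63α and fell with shDBD (−0.95 ± 0.176). SERPINA3, α1-antichymotrypsin, rose with TAp63γ (1.54 ± 0.0737) and with shTA (1.1 ± 0.0902). SERPINE2, protease nexin-1, rose with ΔNp63α (1.22 ± 0.0689) and fell with shDBD (−0.79 ± 0.0844) and shTA (−0.53 ± 0.0844). In all, 2 rose and 2 fell with shDBD, the largest rise being that of neuroserpin, SERPINI1 (1.21 ± 0.161), and 2 rose and 1 fell with shTA. The shares over all genes were 11.1% higher and 10.2% lower with shDBD, and 1.44% higher and 0.853% lower with shTA. SERPINA5, the protein C inhibitor, rose with shDBD (0.91) and shTA (0.53). SERPINF1, the angiogenesis inhibitor PEDF, rose with ΔNp63α (0.48) and TAp63γ (0.61) and was not called with shDBD (−0.23) or shTA (0.21). The collagen chaperone SERPINH1 rose with ΔNp63α (0.36) and TAp63γ (0.45) and was not called with shDBD (0.38) or shTA (−0.43). Not called either were SERPINI1 with ΔNp63α (0.25) and TAp63γ (0.23), SERPING1 with ΔNp63α (0.18) and SERPINA7 with TAp63γ (0.14).

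Of 31 measured proteases that clade B serpins are known to inhibit or that belong to the same families, 9 rose and 1 fell with ΔNp63α and 10 rose and 1 fell with TAp63γ. With shDBD 3 rose and 5 fell, and with shTA 2 rose and 1 fell. The shares called are near those over all genes with ΔNp63α (28.9%) and shDBD (21.3%), below that with TAp63γ (43.4%) and above that with shTA (2.29%). By direction, 12.3% of all genes rose and 16.6% fell with ΔNp63α, and 20.5% rose and 22.8% fell with TAp63γ. With both isoforms the list held a larger share of rises and a smaller share of falls. The plasminogen activators, serine proteases that start fibrin breakdown, were among the called genes in both arms. Urokinase, PLAU, rose by 2.28 ± 0.0815 with ΔNp63α and 2.67 ± 0.0815 with TAp63γ and fell with shDBD (−1.40 ± 0.0998) and shTA (−0.52 ± 0.0998). Tissue plasminogen activator, PLAT, rose by 2.51 ± 0.0869 with TAp63γ and fell with shDBD (−2.10 ± 0.106). The lysosomal cysteine protease CTSZ rose with both hairpins, by 2.04 ± 0.199 with shDBD and 1.39 ± 0.199 with shTA. Inflammatory caspase-1, CASP1, rose by 1.1 ± 0.0783 with ΔNp63α and 0.92 ± 0.0783 with TAp63γ. The membrane protease ST14 rose with ΔNp63α (0.60) and the epidermal protease KLK7 with shTA (0.46). Among those not called, the largest differences were PRSS8 (0.33) and CTSH (−0.30) with shDBD, KLK8 (0.33) and FURIN (−0.32) with shTA, PRSS8 (−0.25) and FURIN (0.24) with ΔNp63α, and CASP4 (0.32) and CASP8 (0.22) with TAp63γ. The medians of the list were 0.05 with both isoforms, against −0.00485 for all genes with ΔNp63α and −0.02 with TAp63γ.

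Proteases known as targets of single serpins are given next, chosen with their values in view. Cathepsin L, CTSL, a target of SERPINB3 and SERPINB13, was not called with ΔNp63α (−0.17 ± 0.102, adjusted p = 0.27) or TAp63γ (−0.17 ± 0.102, adjusted p = 0.211). Its close relative cathepsin V, CTSV, rose by 0.53 ± 0.0893 with ΔNp63α and 1.21 ± 0.0893 with TAp63γ and fell with shDBD (−0.75 ± 0.109). Cathepsin S, CTSS, rose by 0.56 ± 0.0719 with ΔNp63α and 0.48 ± 0.0719 with TAp63γ, and cathepsin K, CTSK, by 0.37 ± 0.104 and 0.32 ± 0.104. FURIN, the target of SERPINB8, was called only with shDBD among the comparisons with a vector (−0.41 ± 0.127, adjusted p = 0.0313). Neutrophil elastase (ELANE), cathepsin G (CTSG) and proteinase 3 (PRTN3) were called in none of the 6 comparisons.

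Squamous differentiation genes, many of them co-expressed with SERPINB3 and SERPINB4 in stratified epithelium, are given for reference. Of 30 measured, 16 rose and 1 fell with ΔNp63α and 20 rose and 1 fell with TAp63γ, with medians of 0.31 and 0.74. Among all genes 12.3% rose and 16.6% fell with ΔNp63α, and 20.5% rose and 22.8% fell with TAp63γ. With shTA 13 rose and 1 fell, where 1.44% of all genes rose and 0.853% fell. With shDBD 9 rose and 8 fell, where 11.1% of all genes rose and 10.2% fell. The psoriasin gene S100A7 rose by 2.03 ± 0.168 with shTA, 4.26 ± 0.137 with ΔNp63α and 6.85 ± 0.137 with TAp63γ, while the cornified envelope gene SPRR1B fell with shDBD (−1.90 ± 0.135). The transcription factor ZNF750 rose by 0.995 ± 0.167 with shTA and 4.2 ± 0.136 with TAp63γ. SPRR1A fell with shDBD (−1.53), while the keratin KRT10 (1.11) and the envelope component PPL (0.88) rose. The calprotectin genes S100A8 and S100A9 rose with shTA (1.23 and 1.496) and ΔNp63α (2.96 and 2.72), and S100A8 also with TAp63γ (3.05). The elastase inhibitor PI3 rose by 2.73 with ΔNp63α and 4.97 with TAp63γ. Not called were IVL (−0.26) and S100A7 (−0.22) with shDBD, PI3 (0.63) and DSG3 (0.60) with shTA, SPRR3 (0.19) and KLK11 (0.18) with ΔNp63α, and SPRR3 (0.29) and EVPL (0.26) with TAp63γ. The epidermal proteases KLK5 and KLK7 stand in both this list and that of the proteases.

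**Figure D5:**
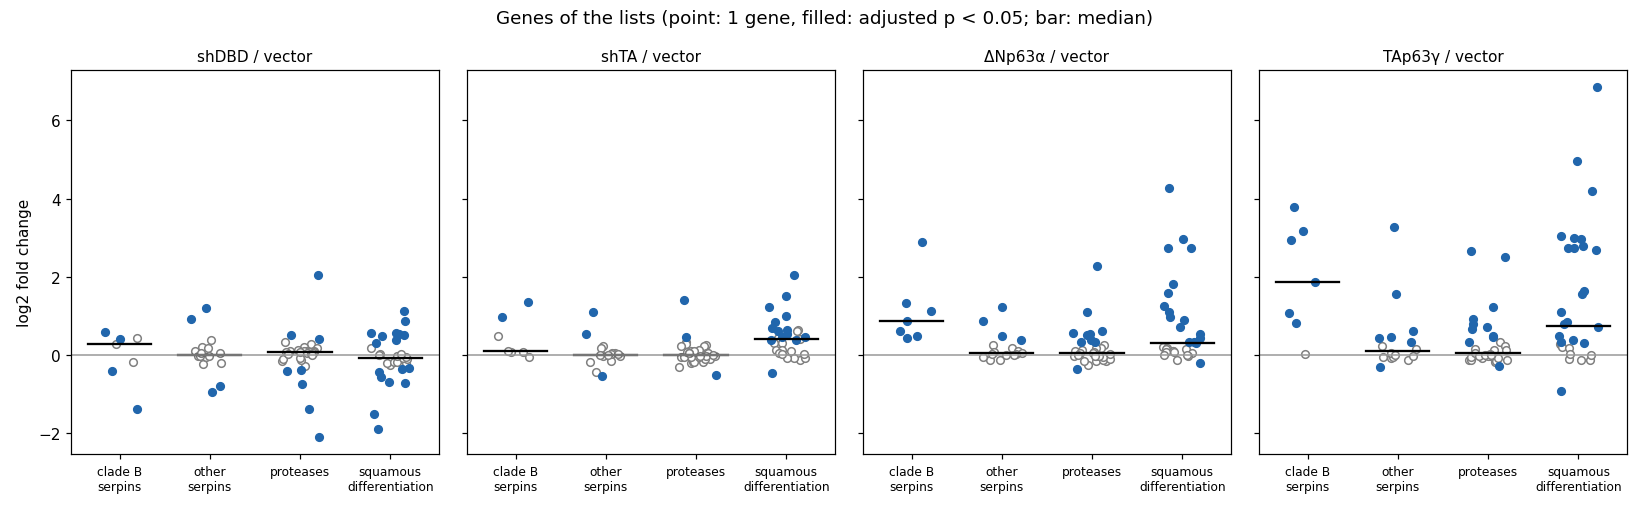
Log2 fold change of the 7 clade B serpins followed here and of each measured serpin of another clade, listed protease and squamous differentiation gene, against the vector of the same arm. Points are genes, filled where the adjusted p was below 0.05, and bars are medians. SERPINB9 and SERPINB10, which were not called, are not drawn. With ΔNp63α and TAp63γ the medians of the 7 clade B genes are 0.87 and 1.86, and those of the serpins of other clades are 0.05 and 0.09.

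For the 5 serpins called with an absolute log2 change of 1 or more against a vector, the genes with the most similar profile over the 15 arrays were found, as the smallest root mean square difference after subtracting the vector mean of each arm. This distance is not scaled to the size of a serpin's own change, so it does not rank the serpins by how close their matches are. SERPINB5 was nearest to CMTM6, a membrane protein (0.0729), AMPD3, an AMP deaminase (0.112), and SFN, the 14-3-3σ protein (0.12). Its own root mean square change was 0.547, the smallest of the 5. SERPINB7 was nearest to CRCT1 (0.22), the efflux pump gene ABCG2 (0.232) and MFAP5, a microfibril component (0.242), against 1.38. SERPINB13 was nearest to the calmodulin-like gene CALML3 (0.287), ST6GALNAC2, a sialyltransferase (0.328), and the carbonic anhydrase CA12 (0.338), against 1.11. SERPINB4 was nearest to the keratin KRT23 (0.296), LCN2, an iron-siderophore carrier (0.339), and CEMIP2 (0.41), against 1.59. SERPINB3 was nearest to the calprotectin subunit S100A8 (0.444), the chemokine CXCL1 (0.453) and TNFSF10, the death ligand TRAIL (0.479), against 2.19. These distances carry no test, and the arrays of an arm share their vector.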

How the data were processed

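The deposited values are log2 expression values of 22277 probe sets on 15 arrays, which the authors made by RMA according to the submitters' processing notes (per the labels); the version of RMA, and if both arms went through it at once, is not stated in these sources. Of the probe sets, 19064 had 1 symbol in the platform annotation, 1043 had several, 2108 were not listed and 62 were array controls; symbols matched a current RefSeq table for 19052 and changed for 0. The highest-mean probe set stood for each gene. The test was limma 3.58.1 (R 4.3.3), fitting group means to the 15 arrays jointly (9 residual and 5.87 prior degrees of freedom, variance trend), two-sided, with Benjamini-Hochberg adjustment over 11963 genes within each of 6 comparisons. The script was tested on simulated data. The text names all 7 clade B members with a probe set, every other measured clade B gene and, of the other lists, per comparison with a vector, up to 4 called and up to 2 uncalled genes by size of change; targets of single serpins and neighbouring genes were picked after their values were seen. The members and lists were chosen with earlier results of these data known. Arrays have no read depth; their number limits the precision. The alternatives were separate arms, no variance trend, the mean of probe sets, a filter and a floor at the 20th percentile, quantile normalization within arms, a replicate block and each array left out in turn.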

Additional observations from a re-analysis of the deposited data

How the results depend on the processing

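The serpins' changes kept their direction in all 7 settings beside leaving out arrays. With the mean of all probe sets, with quantile normalization and with the replicate block 42 of 42 values also kept their side of the threshold. The number of serpins called moved by more than 1.5 times with the floor in 1 comparison, shTA against its vector, where 1 passed in place of 2. The genes called over the whole array moved with the fit: 1064 with shTA (274 as reported) and 3359 between the hairpins (2197) with the arms fitted separately, and 150 with shTA under the replicate block. Leaving out 1 array gave 1650 to 2968 genes and 3 to 5 serpins with shDBD, 87 to 472 genes and 1 to 3 serpins with shTA, and 1348 to 2588 genes and 3 to 5 serpins between the hairpins. It gave 6 to 7 serpins with ΔNp63α and between the isoforms and 6 with TAp63γ. Values that changed sign were all uncalled: SERPINB1 with shTA ranged from −0.15 to 0.0212, SERPINB8 with shTA from −0.0509 to 0.16, and SERPINB1 with TAp63γ from −0.0288 to 0.0764 as single arrays were left out.

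Replicate numbers did not pair the arrays: deviations from group means of same-numbered arrays correlated at 0.00137 to 0.069 in the knockdown arm and −0.628 to 0.476 in the overexpression arm. With 1 array left out, 1 serpin passed with shTA without shRNA vector replicate 2, and 3 passed between the hairpins without shTA replicate 1. The SERPINB4 difference with shDBD passed with the arms fitted separately (adjusted p = 0.0164). The knockdown arm has 2 arrays per group, so a single array can decide a call there, and SERPINB4 lies near background in both vectors. Calls there also moved when some overexpression arrays were left out, for SERPINB13 with shTA and SERPINB4 with shDBD. Their differences stayed the same, since only the spread is shared between the arms in the fit.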
